A study of Mus musculus with 67 samples.

Results

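Chaperone and translation factor genes were followed in the striatum, the forebrain region that holds the medium spiny neurons, over adult age and under caloric restriction. The members were the features whose single gene symbol began with Hsp, Dnaj, Cct and a digit, Pdia, Eif or Eef. This choice used names and no measured value. It gave 58 genes on 73 features, of 4209 genes and 8448 features on the filter. Of these, 27 genes (32 features) were counted as chaperones and 31 genes (41 features) as translation factors. RNA came from 67 C57BL/6 mice, 1 cDNA filter per mouse. Mice had feed ad libitum (AL), at 100% of regular feed, or were on caloric restriction (CR), lowered in steps to 60% of feed. Adults were young (169 to 194 days, 10 AL and 9 CR mice), middle (472 to 499 days, 10 AL and 10 CR mice) or old (673 to 743 days, 10 AL and 8 CR mice), and 10 juvenile AL mice were 17 to 44 days old. Each group held males and females, 5 of each sex except for 4 young CR males and 3 old CR males. All 3 old CR males were 673 days old, while the old CR females were 703 to 743 days and the old AL mice 704 to 743 days old. No agent or altered allele was named for any group.

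Chaperones bind proteins that are unfolded or newly made and keep them from clumping while they fold. Hsp70 proteins work in cycles with J proteins of the Dnaj family, Hsp90 acts late on kinases and receptors, the CCT ring folds actin and tubulin, and protein disulfide isomerases (Pdia) form disulfide bonds in the endoplasmic reticulum (ER). Translation factors carry out protein synthesis: initiation factors (Eif) bring the ribosome to the start codon of an mRNA, and elongation factors (Eef) deliver aminoacyl-tRNA and move the ribosome along. Both systems draw heavily on cellular energy, and their loss of balance is a textbook feature of ageing cells.

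The values were Z scores, which centre each filter on 0 and scale it to unit spread. A score says how bright a gene's spot was among all spots of that array. It depends on the probe as well as on the RNA, so scores of different genes were not set against each other, and all differences are between mice for the same gene, in Z units. In whole striatum, fewer cells of a type and less RNA per cell cannot be told apart.

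In 44 of the 58 genes a RefSeq promoter window (250 bases before to 50 after a start, GRCm38.p6) could be searched, 60 windows in all. The ER stress element, through which genes of the unfolded protein response are switched on, was searched as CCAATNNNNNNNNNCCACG on both strands. It was found in 39 of 32851 windows of all genes (0.119%) and in 3 of the 60 windows of the members (5%). These were the windows of Hspa5 (BiP, the Hsp70 of the ER), Pdia6 (a disulfide isomerase) and Dnajc3 (a J protein of the ER). They are shown because all 3 are ER chaperone genes of the set, with the element in capitals, 20 bases on each side and the first base of the element at -65, -98 and -105 from the start.
Hspa5, chr2:34772005-34772063, plus strand: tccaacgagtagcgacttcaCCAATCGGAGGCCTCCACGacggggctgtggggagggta
Pdia6, chr12:17266471-17266529, plus strand: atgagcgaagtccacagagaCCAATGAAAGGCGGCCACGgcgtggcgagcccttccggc
Dnajc3, chr14:118937807-118937865, plus strand: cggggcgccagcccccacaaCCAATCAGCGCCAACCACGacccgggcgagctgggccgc
The heat shock element is built of GAA units facing each other. GAANNTTC was in 7.86% of all windows and in those of Cct2, Dnaja1, Eif2ak1 and Eif3a, and TTCNNGAA was in 8.52% of all windows and in those of Cct6a, Dnajc10, Eif2ak3 and Eif4g3. The shares among the 60 windows of the members were 6.67% and 8.33%, near those of all windows, and the 3-unit element was in 0 of the 60 and in 0.603% of all. Dnaja1, described below mouse by mouse, carried the first form from -124 to -117, here in capitals.
Dnaja1, chr4:40722324-40722371, plus strand: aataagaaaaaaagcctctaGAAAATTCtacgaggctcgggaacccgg

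Before the results, 2 features of the arrays have to be given. For 1 male and 1 female of the old AL group (replicate 5 of each), scores were set against the median profile of the arrays without these 2. They matched it at r = 0.135 and 0.132 as listed, against 0.992 for each with the value order turned end to end. Both were therefore turned. In addition, 8 arrays had a column median below -0.04, and 7 of them were adult arrays, spread over all 6 age and diet groups (2 in young AL and 1 in each of the others). These low-median arrays carried much of the variation of the members. Relative to the 50 other adult arrays, 34 members were higher and 24 lower in them, and for 42 of the 58 members the shift was larger than the SD between mice of a group without these arrays. The shift reached 1.01 for Dnajb9, 0.70 for Eif3h and 0.51 for Hspg2, and -0.69 for Pdia3, -0.52 for Cct2 and -0.41 for Cct7. For Hsp90aa1 and Eif2ak4 it was -0.004 and -0.001. The shift exceeded 0.5 in size in 14.8% of chaperones, 3.23% of translation factors and 14.1% of all rows, so it was not particular to the members. Without these arrays 103 of 416 differences of the 32 tested members changed sign and 185 kept it but moved by over 1.5 times. Values without them are given for the main contrast of each gene tested by permutation, and for some other genes, CCT values and family counts. They are not given for the scores of Hspa8, Hspa5 and Eef1a1. No share of all rows higher or lower is given without these arrays.

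**Figure D1:**
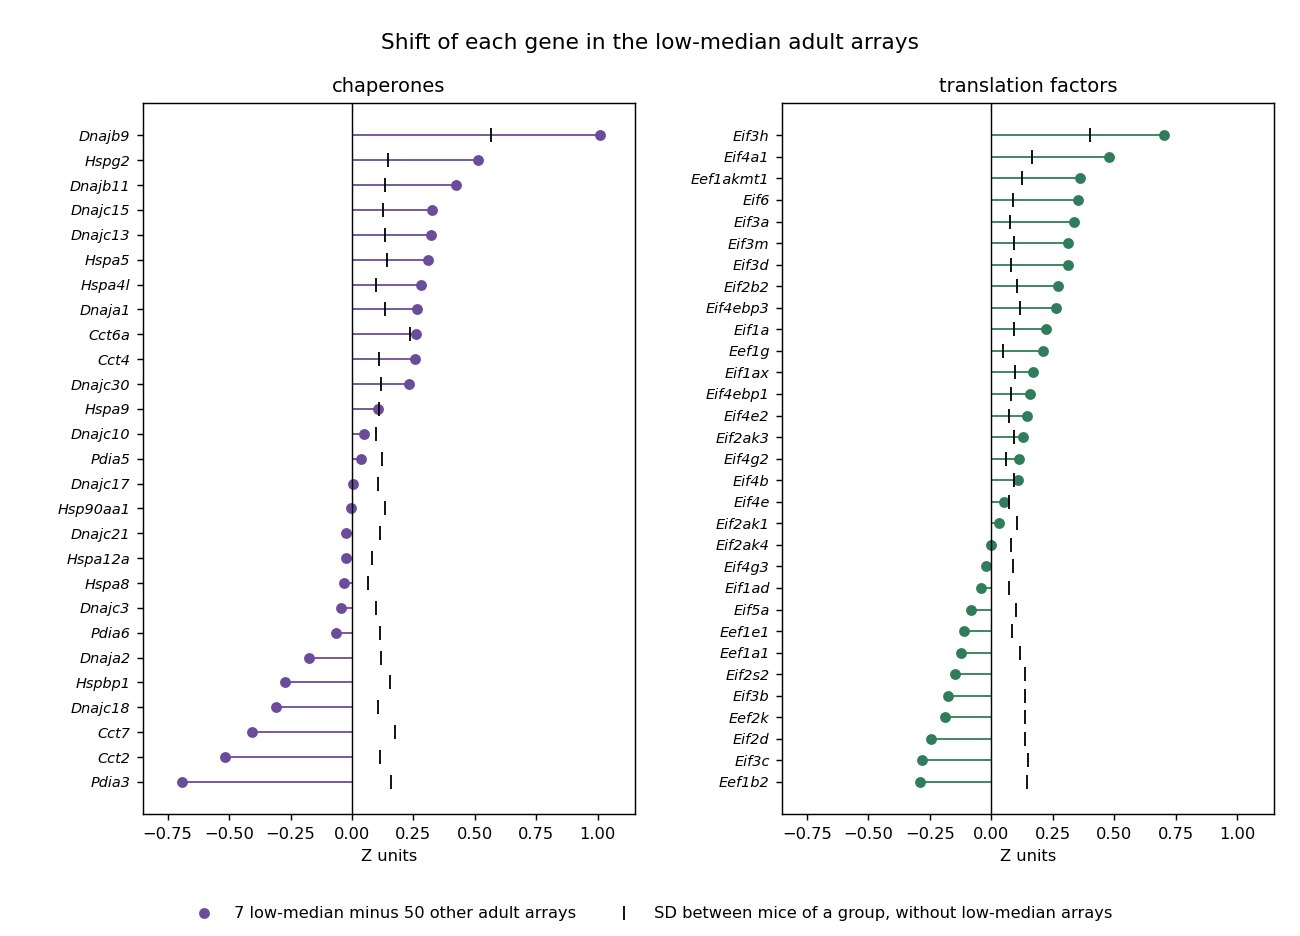
Mean score in the 7 low-median adult arrays minus that in the 50 other adult arrays (points, Z units) for the 27 chaperone and 31 translation factor genes, ordered by that shift. Black ticks give the SD between mice of a group without the low-median arrays, and for 42 of 58 genes the point lies farther from 0 than the tick.

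The members held brightly and dimly hybridising genes alike. Of the chaperones 16 of 27 (59.3%) and of the translation factors 16 of 31 (51.6%) had a mean score above 0 over the adult arrays, against 50.2% of all rows, and only these 32 entered the main test. The other 26 were tested in a fit without this filter. The SD between mice of a group had a median of 0.140 for chaperones, 0.121 for translation factors and 0.151 for all rows. In 54 of the 58 genes the 6 adult age and diet means lay within less than 1 such SD of each other.

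Among the Hsp70 genes, Hspa8, the constitutive Hsp70 of the cytosol, had mean scores of 1.41 ± 0.045 (SD, n = 10) in young AL, 1.39 ± 0.085 (n = 10) in middle AL and 1.40 ± 0.068 (n = 10) in old AL mice. Under CR the means were 1.37 ± 0.087 (n = 9), 1.40 ± 0.040 (n = 10) and 1.41 ± 0.068 (n = 8) in young, middle and old mice. Hspa8 had the smallest SD between mice of a group among the 58 members (0.0679), and its old minus young difference in AL had a 95% interval of -0.0777 to 0.0617. Both values are for the average of 2 features. Taken singly, these features had an SD over all adult mice of 0.154 and 0.160, so neither was as steady as their average. Hspa5 (BiP) ranged from 0.49 to 1.04 in young AL mice (median 0.785) and from 0.59 to 1.12 in old AL mice (median 0.755). The ranges overlapped almost wholly, and old minus young was 0.005 ± 0.079 (SE, limma adjusted p = 1.0). Under CR, Hspa5 differed by 0.067 ± 0.088 between old and young mice (limma adjusted p = 0.977). Hspa9, the mitochondrial Hsp70, differed by -0.015 ± 0.052 in AL and by -0.011 ± 0.058 in CR, with limma adjusted p of 1.0 and 0.983.

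For the elongation factors the SD between mice of a group was 0.121 (Eef1a1), 0.0857 (Eef1g) and 0.174 (Eef1b2), against a median of 0.151 for all rows. The Eef1a1 score averages 3 features and that of Eef1g 5, while Eef1b2 has 1. Averaging can lower an SD, so these values are not like for like. Eef1a1, which delivers aminoacyl-tRNA to the ribosome, had mean scores of 0.768 ± 0.111 in young AL (n = 10), 0.743 ± 0.081 in middle AL (n = 10) and 0.807 ± 0.069 in old AL mice (n = 10), with lowest and highest mice at 0.64 and 1.02, 0.59 and 0.87, and 0.697 and 0.92. Its old minus young difference was 0.039 ± 0.055 in AL and -0.012 ± 0.061 in CR. Eef1g, a subunit of the exchange factor that recharges Eef1a1, differed by -0.033 ± 0.041 in AL and 0.034 ± 0.046 in CR. Eef1b2, the exchange subunit, differed by 0.05 ± 0.077 and -0.024 ± 0.085. All of these elongation factor differences were smaller than their SE, and each had a limma adjusted p of 0.977 or more.

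The first question was whether the 2 systems changed with age. In limma, 0 of 16 chaperones and 0 of 16 translation factors passed an adjusted p of 0.05 in any of the 3 age contrasts within AL (middle minus young, old minus middle, old minus young). The share of all 3904 rows that passed was 0% in each of them. At an unadjusted p under 0.05, 33, 13 and 12 of all rows were found in these 3 contrasts, and 0, 0 and 1 of the members. These are 0.845%, 0.333% and 0.307% of all rows, below the share of 0.05 awaited where nothing differs. The limma p values and intervals may therefore be too cautious, which limits what a lack of calls says. The reason was not tested. The 3 contrasts share their groups, so they are not independent of each other. Between middle and young AL mice 15 of 16 translation factors had a lower mean in middle mice (93.8%, median difference -0.0253), against 49.2% of all rows (median 0.001). In the fit without the filter 23 of 31 were lower (74.2%), against 52.2% of all rows. Eif4e2, a cap-binding protein related to eIF4E, was at -0.083 ± 0.042, Eif1ad at -0.073 ± 0.038 and the heme-regulated kinase Eif2ak1 at -0.056 ± 0.046, each with a limma adjusted p of 1.0. Eif4e2 was at -0.051 without the low-median arrays, and 11 of the 16 were then lower (median -0.0157). Of the chaperones 10 of 16 were lower in the same contrast (median -0.009), but 7 of 16 without the low-median arrays. From middle to old AL age 10 of 16 translation factors and 7 of 16 chaperones had a higher mean, with medians of 0.0165 and -0.0035. The share of all rows was 51.4% (median 0.001). From young to old AL age 7 of 16 translation factors (median -0.0203) and 4 of 16 chaperones (median -0.0095) had a higher mean, against 49.4% of all rows (median -0.001).

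The member farthest from 0 for its spread between old and young AL mice was Eef1e1, which scaffolds the aminoacyl-tRNA synthetase complex and is an elongation factor by symbol only. Its scores ran from -0.05 to 0.10 in young AL mice (median 0.0), from -0.11 to 0.19 in middle AL mice (median 0.07) and from 0.0 to 0.42 in old AL mice (median 0.06). Of the old AL mice 9 of 10 scored above the young AL median, and the groups overlapped. The means were 0.006 ± 0.056 (SD, n = 10) in young and 0.103 ± 0.122 (SD, n = 10) in old AL mice. The difference was 0.097 ± 0.042 (SE, 95% interval 0.0125 to 0.182), with an unadjusted p of 0.0253 and a limma adjusted p of 1.0, and a two-sided permutation test of this gene alone gave p = 0.0133. Without the low-median arrays the difference of means was 0.0954 (exact permutation p = 0.0416). It was 0.132 in males and 0.062 in females. Old AL male replicate 3, at 0.42, stood above the next mouse at 0.19, and the difference was 0.059 without it. Under CR the old minus young difference was 0.059 ± 0.047 (limma adjusted p = 0.977), and the test of CR against AL for this difference gave -0.038 ± 0.063 (limma adjusted p = 0.917). By the pairwise steps of the call rule in the study's methods (mean score above 0, Z-ratio beyond 1.5 and unadjusted p under 0.05) Eef1e1 was called, with a Z-ratio of 1.64. The analysis of variance that followed these steps in the methods was not run here. The pairwise steps called 11 of 3897 rows in this contrast (0.282%) and 0 after Benjamini-Hochberg adjustment.

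Within CR, limma again called 0 of 32 members in the 3 age contrasts, and 0% of all rows in each. Unadjusted p under 0.05 was reached by 85, 39 and 6 of all rows for middle minus young, old minus middle and old minus young, and by 2, 0 and 0 members. The 2 members were the chaperones Hsp90aa1 and Dnaja1, which went in opposite directions from young to middle age. Chaperones divided evenly in that contrast, 8 higher and 8 lower, as did translation factors, and the median was -0.0045 for each. From middle to old CR age 13 of 16 translation factors had a higher mean (81.2%, median 0.0169), against 48.7% of all rows (median -0.002), and 12 of 16 did without the low-median arrays. Eif4e2 (0.051 ± 0.046), Eif3c (0.085 ± 0.085) and Eif5a (0.045 ± 0.050) led them, each with a limma adjusted p of 1.0. In the fit without the filter 20 of 31 translation factors were higher in this contrast (64.5%), against 50.3% of all rows. From young to old CR age 6 of 16 chaperones (median -0.0119) and 9 of 16 translation factors (median 0.00833) had a higher mean. The share of all rows was 49.7%.

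Hsp90aa1, the stress-inducible cytosolic Hsp90, scored from 0.29 to 0.77 in young CR mice (median 0.69), from 0.33 to 0.65 in middle CR mice (median 0.495) and from 0.32 to 0.96 in old CR mice (median 0.605). All 10 middle CR mice lay below the young CR median, yet the lowest young CR mouse lay below them all. The middle minus young difference was -0.131 ± 0.061 (SE, 95% interval -0.253 to -0.00919), with an unadjusted p of 0.0356 and a limma adjusted p of 0.893, and the exact permutation test for this gene alone gave p = 0.0516. Without the low-median arrays the difference of means was -0.130 (exact permutation p = 0.0801). It was similar in males (-0.122) and females (-0.14). The same pairwise steps called Hsp90aa1 here with a Z-ratio of -1.84, and they called 58 of 3913 rows in this contrast (1.48%) and 0 after adjustment. From middle to old CR age the gene was at 0.126 ± 0.064 (limma adjusted p = 1.0). In AL mice the means were 0.596 ± 0.118, 0.538 ± 0.114 and 0.59 ± 0.068 (SD, n = 10 each) in young, middle and old mice, and the 2 steps were -0.058 ± 0.059 and 0.052 ± 0.059 (SE), neither of which passed.

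Dnaja1, a cytosolic J protein that works with Hsp70, scored from 1.55 to 2.30 in young CR mice (median 1.97) and from 1.95 to 2.20 in middle CR mice (median 2.12). Of the middle CR mice 9 of 10 scored above the young CR median, and the groups overlapped. The difference was 0.153 ± 0.074 (SE, 95% interval 0.00527 to 0.301), with an unadjusted p of 0.0427 and a limma adjusted p of 0.893. The exact permutation test for Dnaja1 gave p = 0.0861 with all arrays and 0.0308 without the low-median arrays, where the difference of means was 0.179. Dnajb11, the J protein partner of BiP in the ER, scored from 1.21 to 1.97 in young CR mice (median 1.60) and from 1.63 to 2.03 in middle CR mice (median 1.75). All 10 middle CR mice scored above the young CR median. The difference was 0.16 ± 0.090 (limma adjusted p = 0.893). The exact permutation p was 0.0785 with all arrays and 0.0219 without the low-median arrays, where the difference of means was 0.166. In males the 2 genes differed by 0.23 and 0.261 and in females by 0.076 and 0.058, and this difference between sexes was not tested. Young CR male replicate 1 had the lowest score of its group for both, 1.55 and 1.21. In AL mice the same contrast was 0.03 ± 0.071 for Dnaja1 and -0.014 ± 0.088 for Dnajb11.

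**Figure D2:**
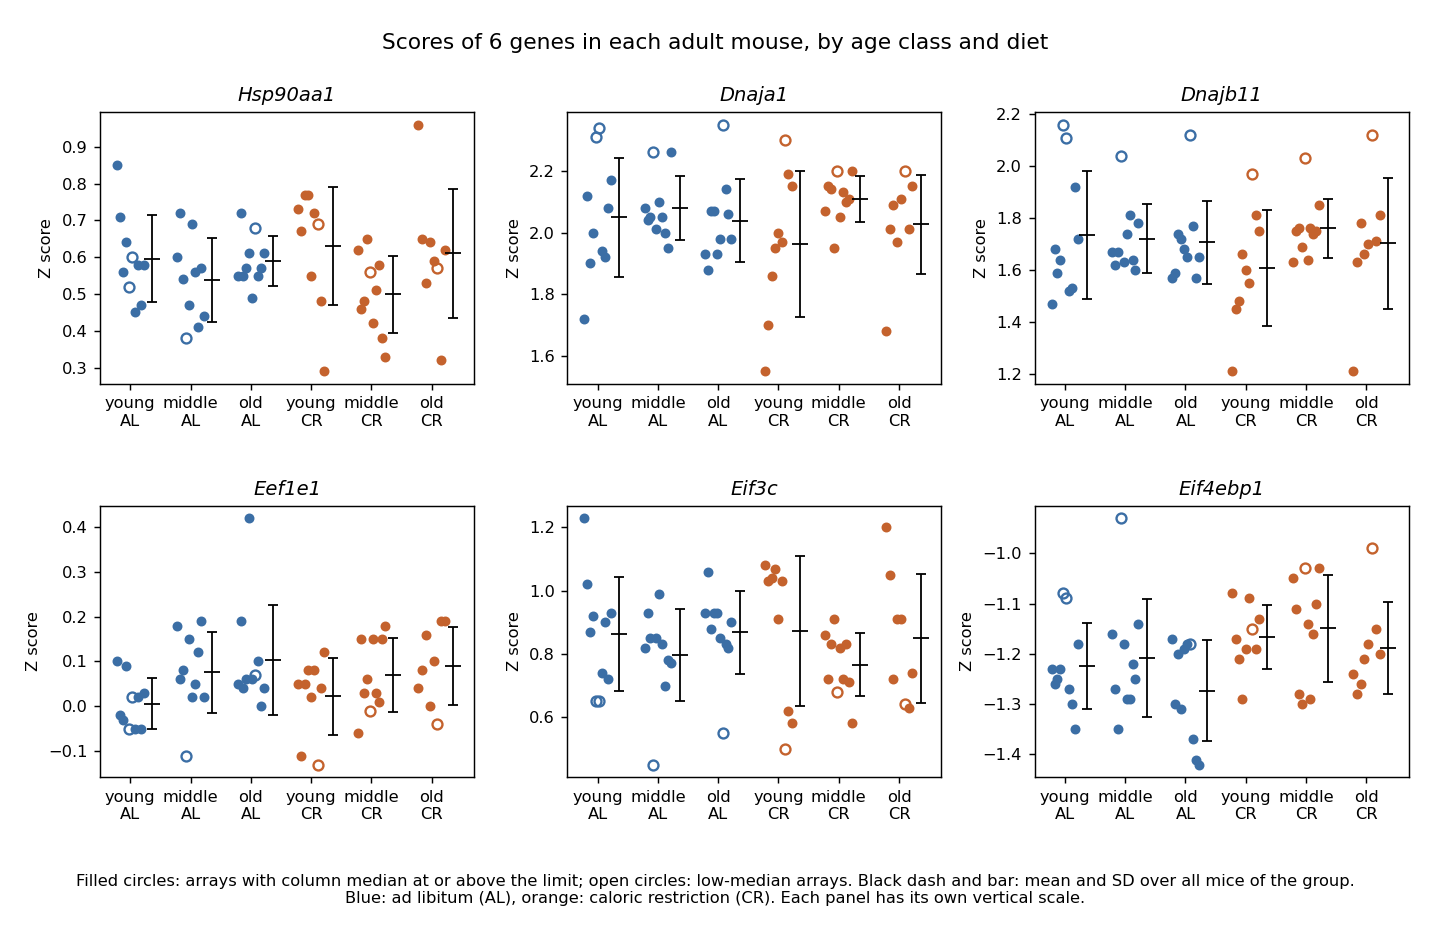
Z scores of Hsp90aa1, Dnaja1, Dnajb11, Eef1e1, Eif3c and Eif4ebp1 in each of the 57 adult mice by age class and diet, with mean and SD per group (8 to 10 mice) and open circles for low-median arrays. Groups overlap for every gene, and the open circles lie at the upper end for Dnaja1 and Dnajb11 and at the lower end for most groups of Eif3c.

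The second question was whether CR shifted the members. For CR minus AL in young, middle and old mice and over the 3 ages, limma called 0 of 32 members and 0% of all rows each time, with 19, 3, 4 and 10 rows and 0 members at an unadjusted p under 0.05. These contrasts use the same AL and CR mice as the age contrasts. In middle mice 13 of 16 chaperones and 12 of 16 translation factors had a higher mean under CR (medians 0.0175 and 0.012), against 48.8% of all rows. Without the low-median arrays these counts were 10 of 16 and 8 of 16. In the fit without the filter they were 17 of 27 (63.0%) and 22 of 31 (71.0%), against 51.9% of all rows. In young mice the CCT subunits Cct7 and Cct4, parts of one ring, were at 0.183 ± 0.101 and -0.116 ± 0.065 (limma adjusted p = 0.85 each), and at 0.0912 and -0.06 without the low-median arrays. In old mice 9 of 16 chaperones and 12 of 16 translation factors were higher under CR, with medians of 0.006 and 0.0135, against 47.1% of all rows. In the fit without the filter they were 15 of 27 (55.6%) and 22 of 31 (71.0%), against 52.7% of all rows. Without the low-median arrays the 4 tested eIF4 genes, 3 elongation factors and 2 kinases were all higher in old mice. Eif1a and Eif1ad divided 1 and 1, as did Eif5a and Eif6, and Eef1e1 was lower. The CCT genes were then 1 higher and 3 lower. Over the 3 ages each of the 32 tested members had a 95% interval within ±0.2, while without the filter the intervals of all 58 reached 0.511 in size. Eif5a, a factor that helps the ribosome past proline runs, was at 0.039 ± 0.028, Hspa9 at 0.038 ± 0.031 and Hsp90aa1 at 0.010 ± 0.035. Old minus young in CR minus the same in AL, the interaction of age and diet, gave 0 members and 0% of rows, with Cct7 at -0.221 ± 0.146 and Cct4 at 0.125 ± 0.094, and at -0.132 and 0.0205 without the low-median arrays.

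Eif4ebp1, which binds eIF4E and holds back initiation until mTOR kinase phosphorylates it, had a mean score of -1.20 and so did not enter the main test. It is named because of its value in the fit without the filter. In AL mice its scores ran from -1.35 to -1.08 (median -1.24) in young, -1.35 to -0.93 (median -1.23) in middle and -1.42 to -1.17 (median -1.25) in old mice. In CR mice they ran from -1.29 to -1.08 (median -1.17), -1.30 to -1.03 (median -1.12) and -1.28 to -0.99 (median -1.21). The CR median was the higher at each age, with overlap, and 20 of 27 CR mice lay above the AL median. The difference was 0.069 ± 0.028 (unadjusted p = 0.0164, limma adjusted p = 1.0 over 7782 rows). For this contrast 50 of the 7782 rows (0.643%) reached an unadjusted p under 0.05. A permutation test of this gene alone over 27 CR and 30 AL mice gave p = 0.00968, and 0.0006 without the low-median arrays, neither adjusted for the choice of this gene. The difference was 0.078 in males and 0.06 in females. Eif4e, the cap-binding partner of Eif4ebp1, had group means between -0.15 and -0.095 and also lay below the filter. Without the filter Dnajc13, an endosomal J protein, was the other member below it that reached an unadjusted p under 0.05, for the interaction (0.227 ± 0.109, limma adjusted p = 0.9748). For the interaction 38 of 7782 rows (0.488%) did so.

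**Figure D3:**
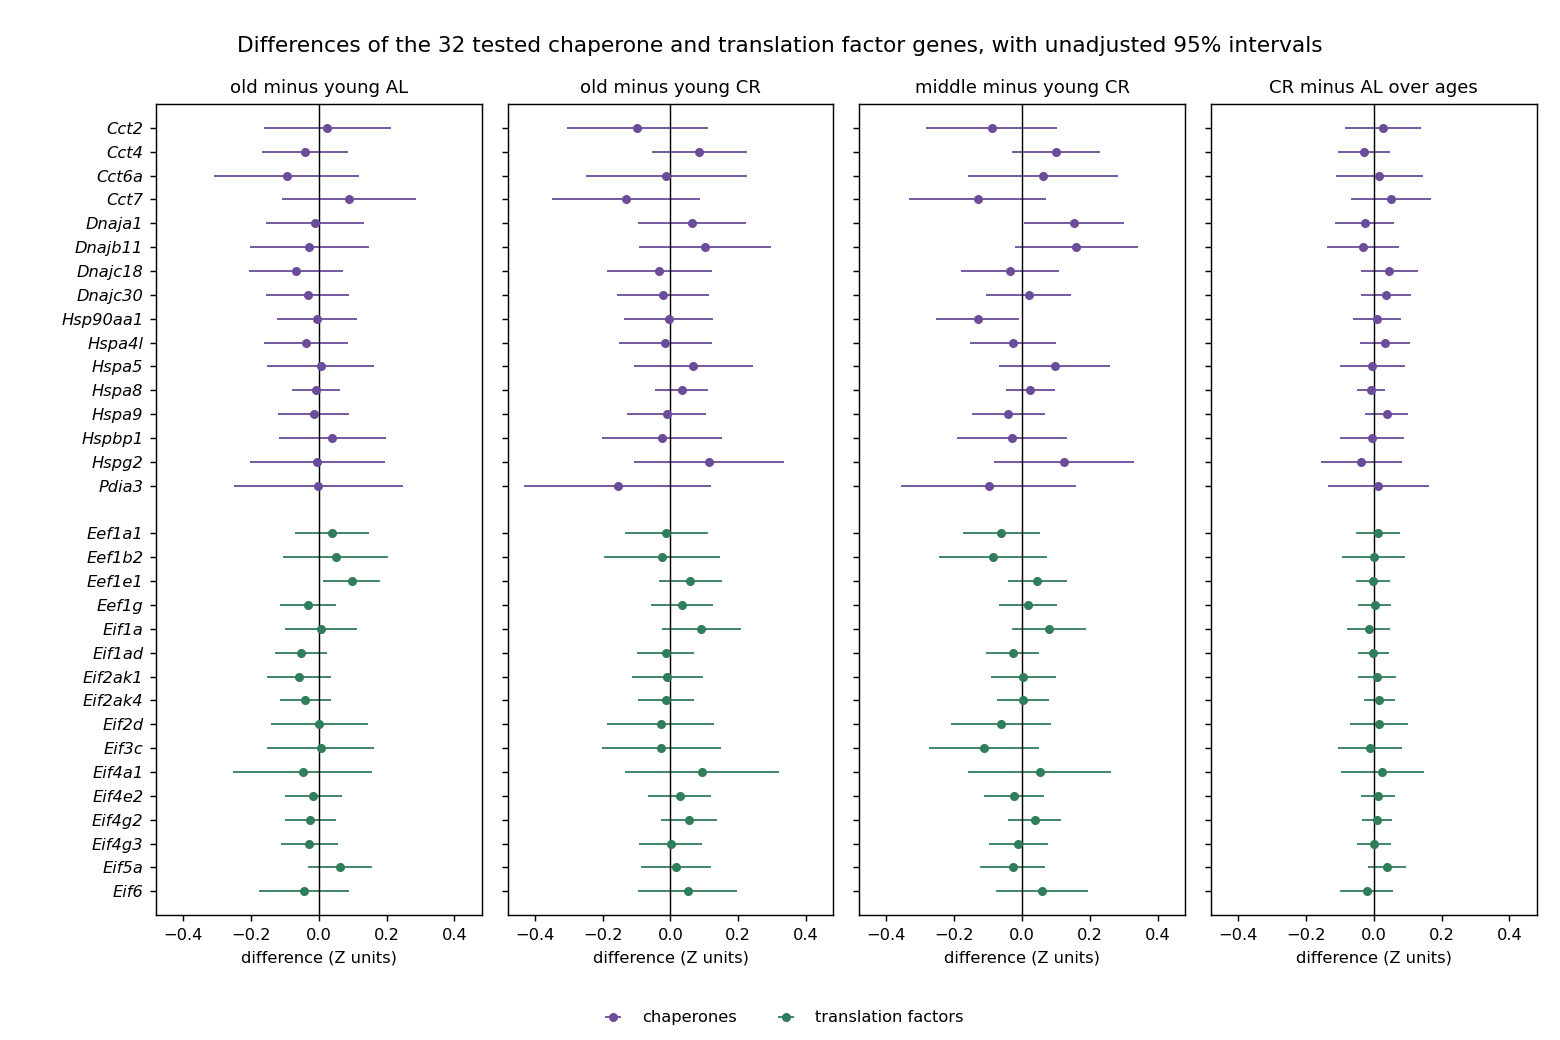
Differences (points, Z units) with unadjusted 95% intervals from limma for the 16 chaperones and 16 translation factors tested, in 4 contrasts. Intervals that leave out 0 belong to Eef1e1 for old minus young AL and to Dnaja1 and Hsp90aa1 for middle minus young CR, and none of these passed adjustment.

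Females and males did not differ in any member by limma (0 of 32, 0% of rows, 7 rows and 0 members at an unadjusted p under 0.05), and each of the 32 tested members had a 95% interval within ±0.2, while without the filter the intervals of all 58 reached 0.516 in size. Hspa4l, an Hsp110 relative, was at -0.044 ± 0.037 and Dnaja1 at 0.05 ± 0.043. Between young and juvenile AL mice 0 of 32 members and 0% of 3892 rows passed, with 17 rows and 0 members at an unadjusted p under 0.05. Translation factors were higher in 10 of 16 cases (median 0.026) and chaperones in 9 of 16 (median 0.0075), against 52.3% of rows (median 0.004). Hsp90aa1 was at 0.055 ± 0.056, Hspa8 at 0.035 ± 0.041 and Eif2ak1 at 0.057 ± 0.044. Over 12 contrasts, the interaction left out, 384 differences of members were estimated. Of these 16 were larger than 0.1 and 2 were larger than the SD between mice of a group. The 95% interval lay within ±0.2 for 285 and within ±0.3 for 365 of the 384. Pdia3, an ER oxidoreductase that helps glycoproteins fold, was the least well bounded, with an old minus young CR difference of -0.156 ± 0.137 and an interval down to -0.432. It was at -0.1 without the low-median arrays, and its lowest mouse in every adult age and diet group was a low-median array.

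By family, the 4 tested J protein genes (of 12 on the filter) all had a lower mean in old than in young AL mice, from -0.067 to -0.011, but 2 of the 4 without the low-median arrays, and 3 of the 4 had a higher mean in middle than in young CR mice. The 4 tested CCT genes, whose products sit in one complex, divided 2 and 2 in each of these contrasts, and 1 higher and 3 lower in the first of them without the low-median arrays. The 4 tested eIF4 genes were all lower in old than in young AL mice, from -0.048 to -0.016, and all higher under CR over the ages, from 0.000917 to 0.0249, but without the low-median arrays 2 of 4 were lower and 3 of 4 higher. The kinases that slow initiation under stress, Eif2ak1 and Eif2ak4, were at -0.058 ± 0.046 and -0.04 ± 0.037 for old minus young AL and at -0.009 ± 0.051 and -0.014 ± 0.041 for old minus young CR. Each of these values was without a call.

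Weighting arrays by their quality changed the counts of calls. With limma's array weights 4 of 32 members (12.5%) passed for middle minus young CR, beside 16% of all rows. They were Dnaja1, Dnajb11, Eif3c and Hsp90aa1. For old minus young CR 9 of 32 members (28.1%) passed beside 24.8% of all rows, and for female minus male 1 member (Eif3c) passed beside 2.56%. With the gene-by-gene estimate of the weights 4 members (the same 4 genes) passed for middle minus young CR beside 13.1% of rows, and 1 member, Dnajb11 (3.12%), for old minus young CR beside 10.5%. With the rows in reverse order this estimate gave 4 members and 0 members in these contrasts, since it depends on row order. The weights did not settle: the default estimate stopped before convergence and gave old CR male replicate 2 a weight of 135.5, with the next array at 3.92. Eif3c, a core subunit of eIF3, scored from 0.50 to 1.08 in young CR (median 1.03) and from 0.58 to 0.91 in middle CR mice (median 0.77). Its exact permutation p was 0.209 in this contrast, and 0.0841 without the low-median arrays, where the difference of means was -0.144.

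For 10 members with more than 1 feature, the features could be set against each other. The mean scores of the 2 features of a gene differed by a median of 0.636 in 7 members with 2 features and of 0.697 in all 485 such genes. Hspa8 had features at 2.21 and 0.583, Cct2 at 0.908 and -0.655, and the 5 features of Eef1g lay between 0.0517 and 1.62. For old minus young AL the 2 features had the same sign in 2 of 7 members, and in 50.1% of all genes with 2 features. Over 12 contrasts, the interaction left out, this count ran from 2 to 5 of 7 members. Of the 3 features of Eef1a1, 2 were higher in old AL mice (0.07 and 0.112) and 1 was lower (-0.066), by plain means of 10 mice each. The 2 features of Cct2 had the same sign in AL (0.018 and 0.031) and in CR (-0.0858 and -0.0682).

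**Figure D4:**
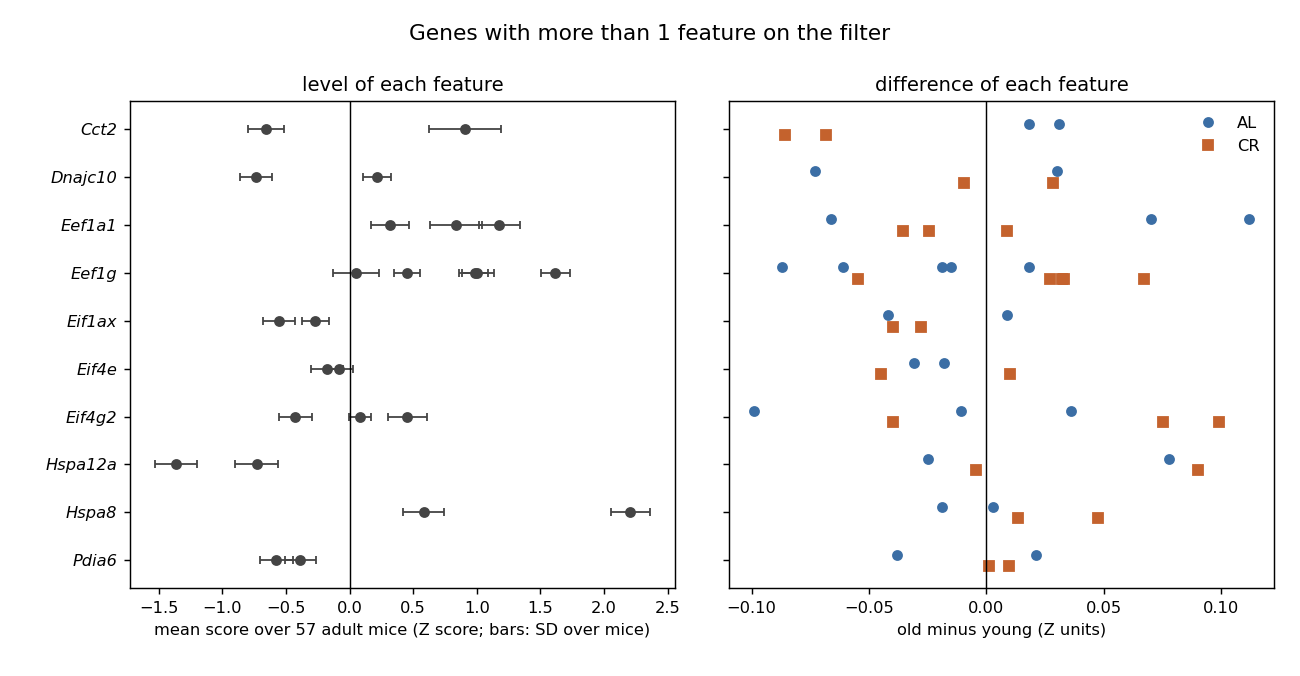
Left, mean Z score of each feature over the 57 adult mice with the SD over mice, for the 10 genes with more than 1 feature. Right, old minus young difference of the same features in AL (circles) and CR (squares), in Z units, which fell on both sides of 0 for most genes, as for Eef1a1 and Eef1g in both diets.

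Other genes of the same pathways also held no call. Of 35 listed partners of the cytosolic chaperones 11 were on the filter and 6 scored above 0. They include the Hsp90 cochaperone Ptges3 and the Hsp70 cochaperone St13. All 6 had a lower mean in middle than in young AL mice (median -0.035), against 49.2% of all rows. In CR mice 5 of 6 had a higher mean in middle than in young mice (median 0.0301), against 45.7% of all rows. For these lists no values without the low-median arrays are given. Of 31 listed genes of ER and mitochondrial folding 10 were on the filter and 4 were tested, with 2 higher in old AL mice. Grpel1, the exchange factor of the mitochondrial Hsp70 Hspa9, was at -0.0553 ± 0.0243 for CR minus AL over ages (unadjusted p = 0.0272). Of 34 other translation factors and regulators 14 were counted on the filter and 10 tested, with 5 higher and 5 lower in old AL mice. Among the lower was Sra1 (-0.028), which is not itself listed and entered these counts through the matching of older symbols. Of 23 listed aminoacyl-tRNA synthetases and scaffold proteins of their complex 4 were on the filter and 2 tested. The tested ones were both scaffold proteins, Aimp2 (-0.04 for old minus young AL) and Eef1e1 itself (0.097), which this list also holds. The synthetase gene Farsa scored below 0 and was not tested, so these values cover no synthetase. Limma called 0 genes of these 4 lists in these contrasts.

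The striatal neuron markers on the filter had mean scores of 0.509 (Ppp1r1b, or DARPP-32, of medium spiny neurons), 0.134 (Rasd2) and -0.136 (Foxp1). As scores depend on the probe, these levels do not check the tissue. Of 18 listed striatal neuron markers 3 were on the filter, of 12 astrocyte markers 5, of 9 microglia markers 3 and of 7 blood markers 4, and none of the listed oligodendrocyte, endothelium, choroid plexus or cortical neuron markers had a single symbol here. Each mouse's scores were averaged over the markers of a type, and the median of these averages was taken over mice. Among the 6 adult groups this median ranged from 0.137 to 0.243 for striatal neurons and from 0.142 to 0.249 for astrocytes. It ranged from 0.193 to 0.278 for microglia and from -0.146 to -0.0607 for blood. For old minus young AL the 3 tested blood markers were all lower (median difference -0.071). For CR minus AL over ages both tested striatal neuron markers were higher, Ppp1r1b by 0.122 ± 0.0612 (unadjusted p = 0.0511) and Rasd2 by 0.0642 ± 0.0312 (unadjusted p = 0.0451). Of 3 tested astrocyte markers 2 were higher in old than in young AL mice (median 0.056). Cst3 was at 0.277 ± 0.0943 (unadjusted p = 0.00502), the highest difference of all 3904 rows in that contrast. Limma called none of these markers. Their part in the members' values was not tested.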

How the data were processed

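Striatal RNA of 67 mice was labelled with a radioactive nucleotide and hybridised to nylon cDNA filters, 1 per mouse, so replicates were mice. The deposited values are the authors' Z score for each of 8448 features, centred on 0 with unit SD within every array. Raw intensities and their log base were not used here, so no fold change could be given, and the number of arrays limits the precision. Groups came from titles and characteristics.

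Symbols came from the annotation table of the platform, with 4875 features carrying 1 symbol, and all 58 members matched RefSeq by gene identifier. Features of one gene were averaged, which gave 7782 rows. A few symbols fit the name rule but not the class (Hspg2 is perlecan, Eef1akmt1 a methyltransferase, and 4 are kinases).

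Differences were fitted with limma 3.58.1 (R 4.3.3) over 12 adult group means (57 arrays) and, for maturation, to 20 arrays. Contrasts weighted sexes equally. Rows with a mean score above 0 were tested, 3904 in adults, with a Benjamini-Hochberg adjusted p of 0.05. The 95% intervals are unadjusted. The fit was tested on simulated scores whose noise was independent between rows. It did not hold shifts shared by many rows of an array, such as those of the low-median arrays. That test therefore does not vouch for the p values of these data. In no comparison did more than 2.18% of the tested rows reach an unadjusted p under 0.05. Permutation tests were two-sided, exact where a group held under 10 mice and otherwise with 100000 permutations. Named genes were classical members, those with the 3 smallest p per class and direction in each contrast, and any called in an alternative. The members, lists and alternatives were chosen with earlier results of these data known. Alternatives covered filter, normalization, averaging, the 2 turned columns, low-median arrays, position in the listing (a running median over 101 features was subtracted), blocks, array weights, leaving out each array, and the pairwise steps of the study's call rule (without its final analysis of variance).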

Additional observations from a re-analysis of the deposited data

Results flagged for a closer look

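In groups of 8 to 10 mice, the highest or lowest score of 14 members was compared with its nearest neighbour over the range of the group. Of 98 groups checked 19 had a score that stood apart, where chance alone gives about 1 in 20, and 15 of the 19 were low-median arrays. Middle AL female replicate 2, a low-median array, stood apart for Hspa8 (1.195, the lowest), Pdia3 (-0.26, the lowest), Dnajb11 (2.04), Eef1g (1.03) and Eif4ebp1 (-0.93, each the highest). Old AL male replicate 4, also a low-median array, stood apart for Dnajb11 (2.12) and Cct4 (1.55), each the highest, and for Pdia3 (0.0) and Eif3c (0.55), each the lowest. Old CR male replicate 3, a low-median array, was the lowest for Pdia3 (-0.11) and the highest for Eif4ebp1 (-0.99). Young CR female replicate 4, a low-median array, was the highest for Eef1g (1.032) and Eif1a (2.39). Eef1g was also highest in the low-median arrays juvenile AL male replicate 3 (0.996) and middle CR male replicate 3 (1.014).

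The other 4 scores came from arrays without a low median. They were Dnaja1 in old CR male replicate 1 (1.68, the lowest of its group), Eef1a1 in young AL male replicate 1 (1.02, the highest) and in middle CR female replicate 5 (0.52, the lowest), and Eef1e1 in old AL male replicate 3 (0.42, the highest).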

How the results depend on the processing

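In limma the count of members that passed was 0 in all 13 comparisons, also with each of the 67 arrays left out in turn. It moved only with array weights, for middle minus young CR (4 members), old minus young CR (9) and female minus male (1), with the gene-by-gene weights for the first 2 of these (4 and 1, or 4 and 0 with the rows in reverse order, added after seeing the data), and by the pairwise steps of the methods' rule for old minus young AL (1, Eef1e1) and middle minus young CR (1, Hsp90aa1). With replicate numbers as a replicate block 0 members passed in every comparison.

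Of 158 named differences, all uncalled, 23 changed sign with the 2 turned columns as deposited, 19 without the low-median arrays, 17 with position correction and a low-median term, 15 with array weights of each kind, 10 with position correction, 5 with a low-median term, 4 with the highest feature per gene, 3 with quantile normalization and 3 without the turned columns. Leaving out 1 array changed the sign of 0 to 16, most without old CR male replicate 3. The reversals below are those among 15 differences with an unadjusted p under 0.05 or a call in an alternative.

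With the 2 turned columns taken as deposited, Eef1e1 reversed for old minus young AL (-0.122), and the medians moved. For chaperones they became -0.144 (old minus middle AL), -0.170 (old minus young AL), 0.164 (CR minus AL in old) and 0.201 (the interaction). For translation factors they became -0.077, -0.102, 0.165 and 0.115 in the same contrasts and 0.0548 for CR minus AL over ages. With array weights, and with gene-by-gene weights in both row orders, the value for CR minus AL in young, median difference of translation factors, was 0.03255, 0.03455 and 0.03055. The value for Eif3c, female minus male, reversed with quantile normalization (-0.0012), without the low-median arrays (-0.00117), with a low-median term (-0.0147) and with position correction as well (-0.0153), where that for Hspa5, old minus young CR, was -0.00424.

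Leaving out 1 array reversed 5 of these 15, each of them without old CR male replicate 3 and both Eif3c differences without other arrays too. For old minus young CR the values ran from -0.179 to 0.00075 for Cct2, -0.002 to 0.226 for Dnajb11, -0.113 to 0.0267 for Eif3c and -0.0118 to 0.176 for Hspa5, and Eif3c for female minus male ran from -0.0158 to 0.0309. The causes were not tested.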
